A study of Mus musculus with 8 samples.

Results

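The mRNAs of the proteasome, the protease complex that degrades ubiquitinated proteins, were examined as a set in mouse P19 cells by nanopore direct RNA sequencing, which gives 1 poly(A) tail length per read. Members were chosen by name alone, as genes whose symbol is Psma, Psmb, Psmc or Psmd followed by a number. Of the 13120 genes with a read, 37 were members, and they held 21232 of the 1926118 reads kept (1.10%). Reads fell on 80 transcripts of these genes, and 34 of the 37 genes had at least 30 reads. No read was counted for Psma8 or Psmb11, which allows up to 3 reads, or 1.56 reads per 1000000 (RPM).

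The barrel of the proteasome, the 20S core, is built from rings of alpha subunits (Psma genes), which gate the entrance, around rings of beta subunits (Psmb genes), some of which carry the proteolytic sites. The 19S regulatory particle caps the barrel. Its base holds the ATPases that unfold the substrate (Psmc genes) with scaffold and ubiquitin-binding subunits, and its lid holds the deubiquitinase that removes the ubiquitin chain (Psmd genes). The complex needs most subunits in fixed ratios, and its genes are known to be expressed together in nearly every cell.

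P19 is an embryonal carcinoma line, here wild type and undifferentiated. Cells received 10 µM MHY1485 (MHY), a compound used to activate the mTOR pathway, or the same amount of its solvent DMSO. Treatment lasted 24 h or 48 h, and the medium was changed each day. Each of the 4 groups had 2 libraries. Library numbers are names from the table and not hours: 21 and 23 for each treatment at 24 h, 24 and 25 for each treatment at 48 h. Every sequencing run (3 at 24 h, 2 at 48 h) held both treatments, while no run held both times, so that time and run cannot be told apart.

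Libraries held 178369 to 316546 reads and 1933 to 3649 member reads. Replicates of a group differed by more than sampling noise, with a chi-square per degree of freedom of 1.12 to 1.41 over genes. The pluripotency marker Pou5f1 was at 2375 to 2907 RPM in the 8 libraries, and all 8 markers of undifferentiated cells had reads. The neuronal markers Dcx and Rbfox3 and the endoderm markers Sox17 and Afp had none, although the neuronal marker Stmn2 had 173 to 336 RPM and the mesoderm marker T ranged from 16.8 to 231.

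The 20S core supplied most of the member reads. The 7 constitutive beta subunits accounted for 35.4% of them (3902 ± 106 RPM, SD, n = 8 libraries), and the 7 alpha subunits for 26.6% (2924 ± 107). The 6 ATPases of the 19S base held 15.5%, the 8 lid subunits 15.8% and the base subunits Psmd1, Psmd2 and Psmd4 together 4.4%. A read is 1 molecule in this assay, so these levels need no division by length. Reads were counted once per transcript, so a read aligned to more than 1 transcript counts for each.

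The 4 most abundant members were beta subunits. Psmb3, a structural subunit of the beta ring, had 1368 reads (713 ± 57.2 RPM, SD, n = 8 libraries). It was followed by Psmb5, the chymotrypsin-like protease, with 1339 reads (691 ± 48.0), by the structural subunit Psmb4 with 1275 reads (663 ± 40.4) and by Psmb7, the trypsin-like protease, with 1250 reads (650 ± 50.3). Their ranges over the libraries overlapped, with 627 to 813 RPM for Psmb3 and 593 to 718 for Psmb7, and Psmb1 was at the same level (648 ± 40.8).

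The remaining catalytic subunit, Psmb6, the caspase-like protease, was far lower at 148 ± 31.0 RPM, with 287 reads. Of its reads, 71.8% aligned to a transcript that the annotation calls a retained intron rather than to the coding transcript, so that the level of the coding mRNA is uncertain. The inducible beta subunits of the immunoproteasome had few reads, with 133 for Psmb10, 6 for Psmb9 and 4 for Psmb8. Psmd1, a scaffold of the base, had 11 reads, and the assembly chaperones Psmd5, Psmd9 and Psmd10 had 152, 115 and 90. Reads of Psmd8 and Psmd10 never reached a mapping quality of 10, and each gene had reads on 4 transcripts.

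Proteasome mRNAs carried shorter poly(A) tails than the other mRNAs of the same cells, and an excess of very short ones. The median tail of the pooled member reads at 24 h was 95 and 91.4 nt in DMSO replicates 21 and 23 and 90.7 and 93.6 nt in MHY replicates 21 and 23. At 48 h it was 91.5 and 90.5 nt in DMSO replicates 24 and 25 and 85.7 and 90.8 nt in MHY replicates 24 and 25. All other mRNAs had medians of 92.5 to 103 nt, and the members lay below them within each of the 8 libraries.

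Over the 8 libraries the member median was 91.2 ± 2.70 nt (SD) against 99.0 ± 3.21 nt for all other mRNAs, a difference of -7.86 ± 1.97 nt (lowest -11.2, highest -5.35). Permuting the signs of the 8 within-library differences exactly (two-sided) gave an exact p = 0.00781, the smallest it can give, and 0.0146 after Benjamini-Hochberg adjustment over the 15 comparisons of this kind. The libraries are the replicates in this test, and each of them measured the same 37 genes. The difference had the same sign in all 20 combinations of library and sequencing run, which held 420 to 2164 member reads each.

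Tails shorter than 30 nt were about as rare as 1 in 20 among member reads and rarer among other mRNAs. At 24 h their share of member reads was 3.47% and 5.37% in DMSO replicates 21 and 23, and 4.27% and 5.07% in MHY replicates 21 and 23. Among all other mRNAs the share was 2.33% and 2.69% in the DMSO libraries and 2.21% and 2.14% in the MHY libraries, in the same order. The members lay above the other mRNAs in each of these libraries, with no overlap between the 95% Wilson intervals, which cover counting error only.

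At 48 h the members were at 4.07% and 5.22% in DMSO replicates 24 and 25 and at 6.74% and 5.65% in MHY replicates 24 and 25. The other mRNAs were at 2.86% and 2.54% in DMSO and at 4.44% and 3.35% in MHY. Over all 8 libraries the mean share was 4.98 ± 1.03% for members and 2.82 ± 0.763% for the others (SD), a difference of 2.16 ± 0.667 percentage points that was positive in 8 of 8 libraries (exact permutation test of the signs, two-sided, p = 0.00781, adjusted p = 0.0146). It was positive in all 20 combinations of library and run. With genes weighted equally in place of reads, the difference was 1.40 points (exact permutation p = 0.00781).

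**Figure D1:**
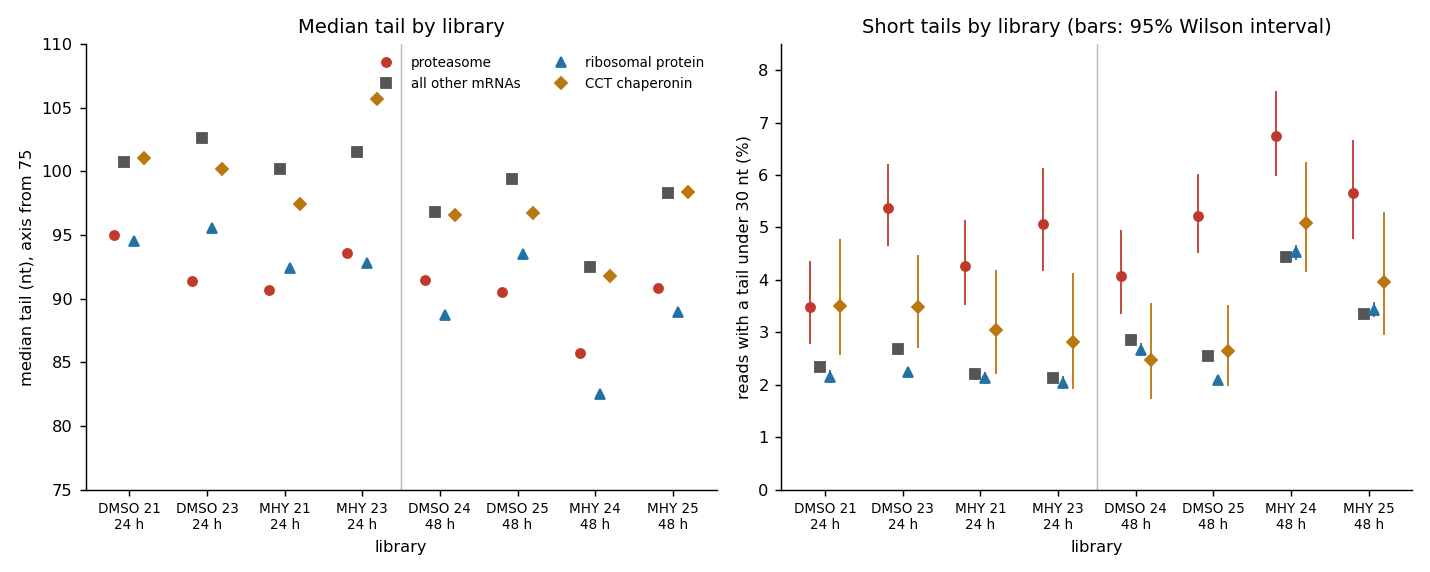
Median tail in nt (left, axis from 75) and percentage of reads with a tail under 30 nt (right, bars are 95% Wilson intervals) in each of the 8 libraries, for the pooled reads of proteasome, ribosomal protein and CCT chaperonin mRNAs and of all mRNAs other than proteasome mRNAs. Proteasome medians of 85.7 to 95 nt lie below those of the other mRNAs in each library, and proteasome short-tail shares of 3.47% to 6.74% lie above them.

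Tails were shorter at each percentile examined, from the 10th to the 90th, in 8 of 8 libraries. The 10th percentile of member tails was 38.7 ± 2.2 nt against 45.3 ± 2.47 nt in the other mRNAs (mean ± SD of 8 libraries), and the 90th percentile was 168 ± 4.87 against 174 ± 2.10 nt. Tails of 20 to under 30 nt made up 3.76% of member reads and 2.19% of the others, and tails of 10 to under 20 nt 1.12% against 0.569%. Tails of 30 to under 60 nt were also more frequent among members in 8 of 8 libraries (21.1% against 17.4%), whereas those of 60 to under 90 nt had nearly equal shares (23.1% and 23%). From 120 to under 200 nt the members were the less frequent in each library.

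**Figure D2:**
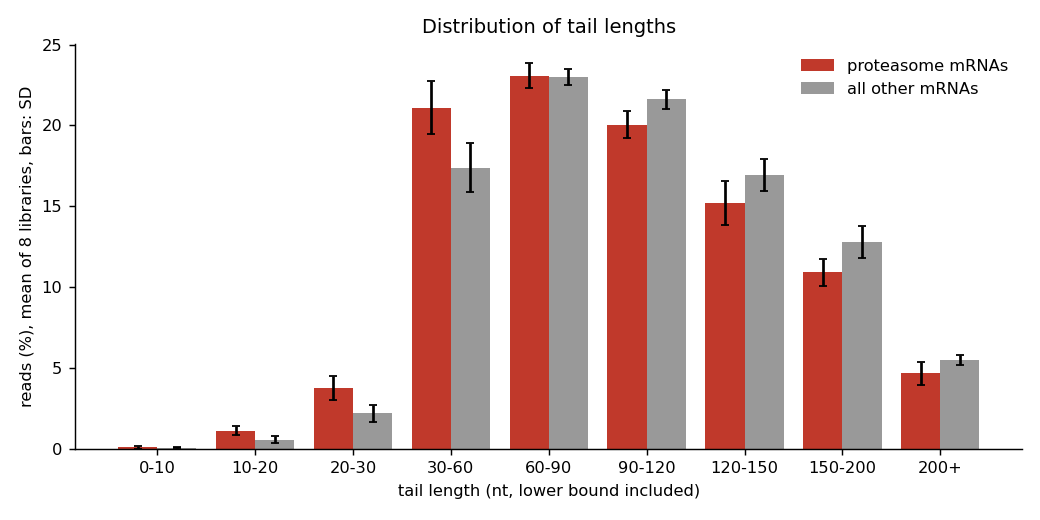
Percentage of reads in 9 classes of tail length (nt), as the mean of 8 libraries with the SD as bars, for proteasome mRNAs and all other mRNAs. Proteasome reads are the more frequent from 10 to under 60 nt (21.1% against 17.4% from 30 to under 60 nt) and the less frequent above 90 nt.

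mRNAs of other large complexes were compared in the same way. Ribosomal protein mRNAs (78 genes) had a median tail of 91.1 ± 4.26 nt, which differed from that of the members by 0.03 ± 2.71 nt (exact permutation p = 0.984), but only 2.66 ± 0.887% of their tails were under 30 nt. The members exceeded them in that share by 2.32 ± 0.727 points, in 8 of 8 libraries (exact permutation p = 0.00781, adjusted p = 0.0146). Conversely, ribosomal protein mRNAs had more tails of 30 to 90 nt, 46.4% against 44.2% (p = 0.0156, adjusted p = 0.0234, exact permutation test, members lower in 7 of 8 libraries). mRNAs of the CCT chaperonin (8 genes), which folds actin and tubulin, had a longer median of 98.5 ± 4.03 nt. They also exceeded the mRNAs outside their own set in tails under 30 nt, by 0.540 ± 0.484 points in 7 of 8 libraries (exact permutation p = 0.0234, adjusted p = 0.032). The difference of the members from these was -7.31 ± 2.22 nt, with a lower median in 8 of 8 libraries, and their share of tails under 30 nt was higher by 1.60 ± 0.782 points in 7 of 8 libraries (exact permutation p = 0.0156, adjusted p = 0.0234).

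None of the 6 comparisons made between parts of the complex passed. Median tails over the 8 libraries were 90.5 ± 4.10 nt for the alpha ring, 90 ± 4.03 nt for the constitutive beta ring, 90.4 ± 5.53 nt for the ATPases and 93.1 ± 3.66 nt for the lid (SD). The non-ATPase base subunits stood at 100.5 ± 4.83 nt, with Psmd2 at 108 ± 6.91 nt, and were not compared with the other parts by a test. The 20S core was 3.07 ± 3.60 nt below the 19S particle, lower in 6 of 8 libraries, which did not pass after adjustment (exact permutation p = 0.0469, adjusted p = 0.281). The short-tail share of the core exceeded that of the 19S particle by 0.644 ± 1.29 points (exact permutation p = 0.195).

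Single subunits differed widely around these means. In 31 members, those reaching 10 reads in every library, the level of each gene was compared with that of its library by limma, in 1 fit over 1949 genes with Benjamini-Hochberg adjustment. Tails under 30 nt were more frequent than in the library for 16 of the 31 members, against 22% of all genes tested, and less frequent for 1, against 9.9% of all genes. In this fit genes at large also stood above their library, with a median of 0.45 on the log2 odds scale over all 1949 genes and 0.88 over the members. The median tail was below that of the library for 16 members, against 17% of all genes, and above it for 3, against 23.9%. With the minimum raised to 30 reads per library, 15 of 26 members were called higher in short tails, against 18.8% of all genes under that minimum, where the median of all 759 genes tested lay at -0.01 on the log2 odds scale and that of the members at 0.88. Under the same minimum the median tail was called lower in 15 of 26 members and in 33.5% of all genes.

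Within the alpha ring, 4 of 7 members had more short tails than their library, and in the constitutive beta ring 4 of 7 did. Among the ATPases it was 5 of 6, all but Psmc4, and in the lid 3 of 8. The median tail was shorter for 6 of the 7 beta subunits, 4 of the 6 ATPases, 4 of the 8 lid subunits and 2 of the 7 alpha subunits. Among all genes tested, 22% were called higher in short tails and 17% lower in median tail. With at least 30 reads in each library these shares were 18.8% and 33.5%. The parts were not compared by these small counts, some of which, such as 2 of 7, lie near the shares. None of Psmd2, Psmd4 and Psmd5 was called in short tails.

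Psmb7 had the highest share of short tails among the 34 members with at least 30 reads. Of its 1250 reads, 113 had tails under 30 nt (9.04%, 95% Wilson interval 7.57% to 10.8%). By library the share was 4.20% and 6.08% in DMSO and 7.97% and 13.3% in MHY at 24 h, then 8.22% and 9.52% in DMSO and 12.2% and 9.45% in MHY at 48 h. At 24 h both MHY values exceeded both DMSO values, and the groups overlapped at 48 h. Its odds of a short tail exceeded those of the library by 1.76 ± 0.14 on the log2 scale (SE, limma adjusted p = 3.2e-05).

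The median tail of Psmb7 was 82.4 ± 9.22 nt (SD, n = 8 libraries), with 102 and 82.7 nt in DMSO and 85.2 and 79.9 nt in MHY at 24 h and 80.5 and 82.0 nt in DMSO and 70.6 and 75.8 nt in MHY at 48 h. DMSO replicate 21 stood above the others, and both MHY libraries of 48 h lay below the rest. Relative to the library, the median was lower by 17.1 nt (limma effect -17.1 ± 2.05, SE, adjusted p = 1.6e-09).

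Other members with many short tails were spread over the complex. Psma3, an alpha subunit, had 7.86% (75 of 954 reads, interval 6.32% to 9.74%), Psma5 had 7.74% and Psmb5 7.47% (100 of 1339 reads). The 4 members with most short-tailed reads, Psmb7, Psmb5, Psma3 and Psmb1, together held 32.2% of the 1090 short-tailed member reads and 22.5% of all member reads. The share of Psmb5 ranged from 2.88% to 11.3% over libraries with a median of 7.46%, and that of Psma3 from 5.32% to 11% with a median of 6.81%. Even the lowest library of Psma3 was above the short-tail share of all other mRNAs in any library.

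Shortest by median, among members with at least 10 reads in each library, were Psmd6 (79.7 ± 8.61 nt), a scaffold subunit of the lid, Psmc3 (81.5 ± 4.67 nt), an ATPase, Psma3 (82.3 ± 4.78 nt) and Psmb7. Library medians ran from 68.5 to 93.7 nt for Psmd6 and from 73.3 to 88.9 nt for Psmc3. These 4 overlapped each other over the libraries, and their order was not resolved. Each was below its library by limma, with effects between -17.1 and -19.3 nt.

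Psmb2, a structural beta subunit, was the opposite case. Only 6 of its 749 reads had tails under 30 nt (0.801%, interval 0.368% to 1.74%), with 1 and 0 such reads in DMSO and 0 and 0 in MHY at 24 h and with 1 and 3 in DMSO and 0 and 1 in MHY at 48 h. Its median tail was 119 and 120 nt in DMSO and 111 and 119 nt in MHY at 24 h, and 106 and 113 nt in DMSO and 109 and 120 nt in MHY at 48 h. The lowest of these 8 values was above the highest library median of all other mRNAs. Psmb2 was the single member called lower in short tails (log2 odds -1.54 ± 0.34, limma adjusted p = 0.0093), and its median was called higher by 15.5 ± 2.47 nt (adjusted p = 1.1e-06).

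Long tails were otherwise found in Psmd5, an assembly chaperone of the ATPase ring (115 ± 18.0 nt, 152 reads), Psmd2, the base subunit that receives ubiquitin carriers (108 ± 6.91 nt, 413 reads), and Psmd3, a lid subunit (102 ± 8.80 nt, 563 reads). Psmd5 and Psmd2 were called above their libraries (14.4 ± 5.88 nt, adjusted p = 0.046, and 9.48 ± 3.39 nt, adjusted p = 0.022, limma), and Psmd3 was not (3.12 ± 2.86 nt, adjusted p = 0.40). In Psmd2 only 46.2% of reads reached a mapping quality of 10. With reads of that quality alone, 1 of 30 members in place of 3 of 31 was called above its library in median tail, against 22.3% of all genes.

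**Figure D3:**
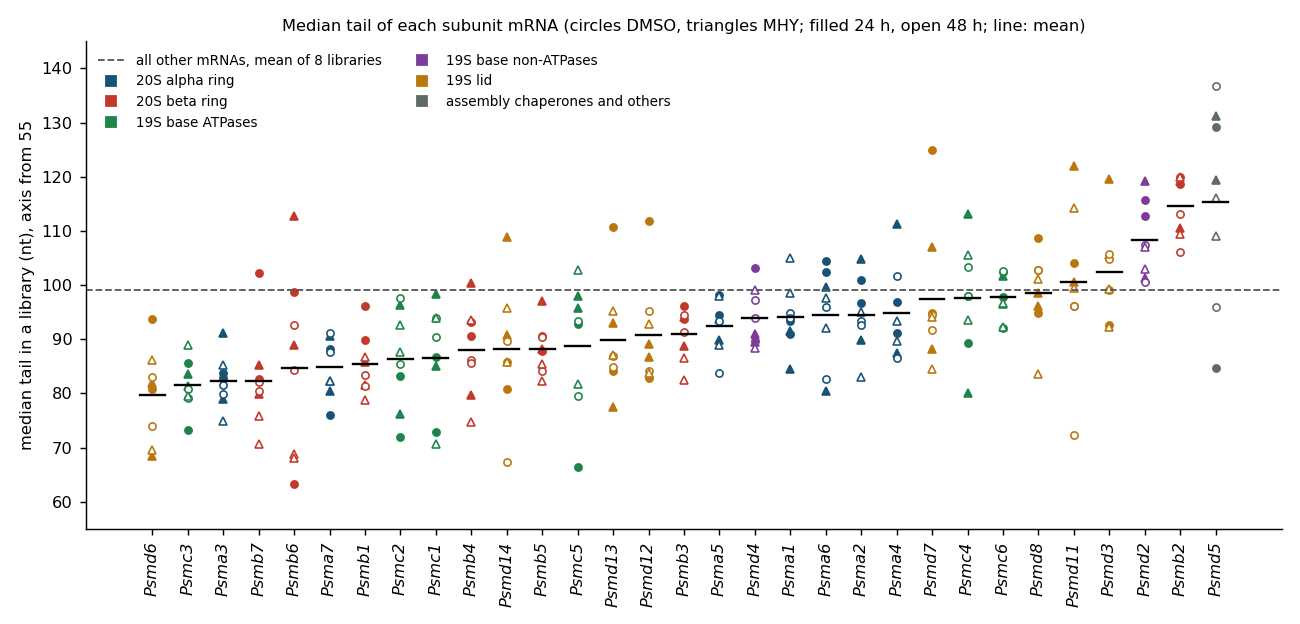
Median tail in nt (axis from 55) of each of the 31 members with at least 10 reads in each library, 1 point per library, ordered by the mean over 8 libraries (black line) and coloured by role. The dashed line is the mean of the library medians of all other mRNAs, 99.0 nt. Psmd6 stands at one end with a mean of 79.7 nt and Psmb2 and Psmd5 at the other with 115 nt each.

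**Figure D4:**
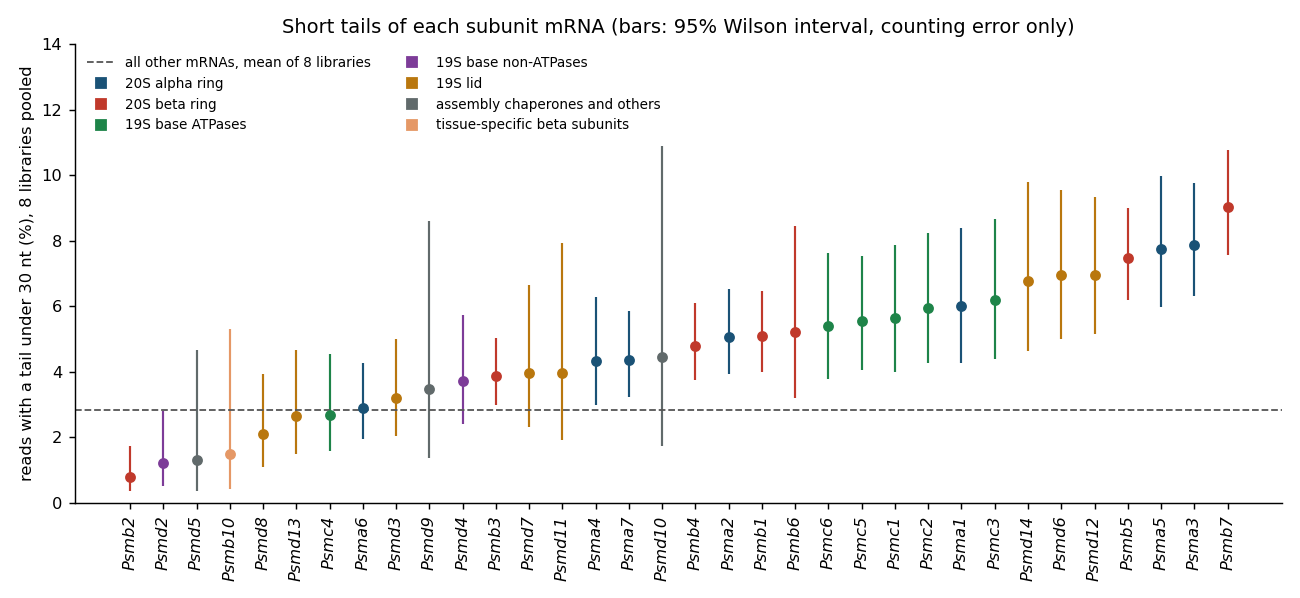
Percentage of reads with a tail under 30 nt in each of the 34 members with at least 30 reads, 8 libraries pooled, with 95% Wilson intervals as bars. The dashed line marks all other mRNAs at 2.82% (mean of 8 libraries). Psmb2 is lowest at 0.801% and Psmb7 highest at 9.04%.

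Other subunits lay between these ends. Psmd14, the deubiquitinase of the lid, had a median of 88.1 ± 11.9 nt and 6.76% of tails under 30 nt (25 of 370 reads), called higher in short tails (log2 odds 1.24 ± 0.35, limma adjusted p = 0.026) and lower in median tail (-11 ± 3.61 nt, adjusted p = 0.012). Psmd4, a ubiquitin receptor, had 94.0 ± 5.33 nt and 3.72%, with neither measure called. Psmb6 had 84.7 ± 17.1 nt and 5.23%, the former called lower (-14.5 ± 4.32 nt, adjusted p = 0.0059, limma). Psmb3 and Psmb4 had medians of 91.0 ± 4.67 and 88.0 ± 8.23 nt and short-tail shares of 3.87% and 4.78%.

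Across the 31 members, those with shorter medians had more tails under 30 nt (Pearson's r = -0.77, Spearman's rho = -0.72). Both values come from the same reads, so that this describes the shape of the distributions. Median tail was only loosely related to read level (r = -0.36) and to the aligned length of the reads (r = 0.40). These are values across genes that share libraries and depth, and genes are not independent replicates.

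The bases at which member reads ended are shown for the longest and shortest tails, as the site where the tail begins. Each sequence holds the last 30 transcript bases before the most frequent read end, from the GENCODE vM21 transcripts (mm10), 5′ to 3′, with the polyadenylation hexamer in capitals. The genes lie on chromosomes 4 (Psmb2, 126677630 to 126709714), 2 (Psmd5, 34849734 to 34874968, and Psmb7, 38588036 to 38644087), 16 (Psmd2, 20651652 to 20663414), 11 (Psmd3, 98682554 to 98695979), 12 (Psma3, 70974621 to 70996347), 2 (Psmc3, 91054009 to 91066369) and 14 (Psmd6, 14112174 to 14120984). Each window lies within the 3′ UTR, downstream of the coding sequence, of the transcript that took most reads of the gene.
Psmd5: tcctttgaaaataaAATAAAtccaaacttg
Psmb2: taattcaaAATAAAgctgaatatagctaaa
Psmd2: ataactttgttgAATAAAgacctttatccc
Psmd3: tgatttttaaacAATAAAaagttctccaga
Psmb7: attaaaataaataAATAAAaagacaaaaaa
Psma3: accgattttcATTAAAttttgtcttataaa
Psmc3: agggctaaagttgatAATAAAaggtgtttt
Psmd6: caacagcatcaAATAAAtatgtcatttgtt

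Searched on the transcript strand, AATAAA was present in 28 of 34 member windows (82.4%) against 66.1% of the windows of all 5771 genes with at least 30 reads, and ATTAAA without AATAAA in the other 6 (17.6% against 14.9%). The 4 longest-tailed and 4 shortest-tailed members did not divide by hexamer, since Psma3 was the one with ATTAAA. Read ends were close to alike in the tail classes. Among reads on the main transcript, 93.3% of those with tails under 30 nt, 93.3% of those with 30 to 90 nt and 92.1% of those with longer tails ended within 25 nt of the main end. Aligned lengths were also alike, with medians of 914, 911 and 915 nt.

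Several members ended short of their annotated transcript. The main read end lay within 25 nt of the annotated end in 22 of 34 members and at least 500 nt before it in 7. Psma2 reads ended 2047 nt, Psma3 reads 1843 nt and Psmb1 reads 938 nt before it. Psmc6 and Psmd12 alone used distinct ends that each had 10 or more reads per library and were tested. The median tail at the distal end of Psmd12, 347 nt downstream, was 93.5 nt against 85.2 nt at the proximal end, a difference of 8.27 ± 11.9 nt (SD, n = 8 libraries, exact permutation p = 0.0859). For Psmc6, with ends 252 nt apart, it was 5.93 ± 23.7 nt (exact permutation p = 0.508). Neither difference exceeded its spread between libraries. Wider gaps stood in members with fewer reads, which were not tested. The end nearest the annotated end had a mean median tail of 141 ± 37.7 nt in Psmd11 (40 reads, at least 2 per library), against 90.4 ± 9.97 nt at the main end. In Psmd9 the more distal end was at 144 ± 49.0 nt (35 reads) against 75.2 ± 20 nt, and in Psmd8 at 121 ± 20.9 nt (43 reads) against 85.8 ± 17.8 nt at the main end.

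Transcripts annotated as other than protein coding took 2.66% of member reads. Their median tail was 90.5 nt, with 82.2 to 105 nt by library, beside 90.7 nt for the coding ones. Retained-intron transcripts, with 381 reads, had 3.41% of tails under 30 nt, beside 5.16% in the coding transcripts. A large part of these reads came from Psmb6, which had 71.8% of its 287 reads on such a transcript. The difference was not tested.

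No proteasome mRNA was called as changed by MHY in tail length or amount. At 24 h the median tail of the members, 93.2 ± 2.53 nt in DMSO and 92.1 ± 2.02 nt in MHY (SD, n = 2 libraries each), overlapped between the treatments, with a difference of -1.08 nt (exact permutation p = 0.667). The share of tails under 30 nt differed by 0.245 points (p = 1, exact permutation test) and that of tails of 30 to 90 nt by 0.447 points, from 43.2% to 43.7% (p = 1, exact permutation test). With 2 libraries against 2, a two-sided exact test cannot give p below 0.33.

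At 48 h the short-tail share of members, 4.07% and 5.22% in DMSO and 6.74% and 5.65% in MHY, was higher in both MHY libraries. The mean difference was 1.55 points, at the smallest p that the design allows (exact permutation p = 0.33). Leaving out 1 library gave 0.981 to 2.12 points, the lowest without DMSO replicate 24, and the 2 runs alone gave 1.95 and 1.28 points. The other mRNAs of the same libraries differed by 1.2 points, also without overlap. The excess of members over other mRNAs was therefore 1.95 ± 1.03 points in DMSO and 2.30 ± 0.0033 points in MHY, and these overlapped (difference 0.357 points, exact permutation p = 1). CCT mRNAs differed by 1.97 points and ribosomal protein mRNAs by 1.59.

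The median tail of the members at 48 h was 91.0 ± 0.668 nt in DMSO and 88.3 ± 3.59 nt in MHY, a difference of -2.73 nt (exact permutation p = 0.667). It rested on MHY replicate 24, without which it was -0.19 nt. The other mRNAs had -2.71 nt. MHY replicate 24 had the shortest median and most short tails in the members and in the other mRNAs alike. Tails of 30 to 90 nt were at 44.6 ± 0.342% in DMSO and 45.3 ± 2.13% in MHY, with no separation.

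In the gene-wise limma fits no member was called in tails under 30 nt, tails of 30 to 90 nt or median tail, at 24 h or at 48 h, among the 31 tested. Over all 1949 genes the percentages called were 0 for each measure at 24 h, and 0.359 for short tails, 0.257 for the 30 to 90 nt class and 0.872 for median tail at 48 h. At an unadjusted p under 0.05, 1, 3 and 1 members passed at 24 h and 2, 0 and 0 at 48 h, in that order of measures, beside 5.64%, 4.87% and 3.95% of all genes at 24 h and 10.6%, 6.16% and 8.36% at 48 h. The SE of a member's change in median tail had a median of 9.40 nt at 24 h and 8.12 nt at 48 h, and changes of more than 2 SE, such as that of Psmc5 at 24 h, also went uncalled.

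The effect of MHY on short tails at 48 h was positive in 24 of 31 members (77.4%) and in 66.5% of all genes, with medians of 0.39 and 0.41 on the log2 odds scale. Psmb3 had the smallest p. Its share was 2.21% and 3.74% in DMSO and 3.47% and 2.07% in MHY at 24 h, where the groups overlapped, and 1.49% and 1.82% in DMSO and 9.73% and 4.08% in MHY at 48 h, where they did not. The change at 48 h was 1.96 ± 0.47 in log2 odds (SE, limma, unadjusted p = 0.0027, adjusted p = 0.127).

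Psma7, an alpha subunit, came next at 48 h, with 0% and 2.68% in DMSO and 9.40% and 6.52% in MHY (log2 odds 2.63 ± 0.82, limma adjusted p = 0.285). At 24 h it had 3.12% and 6.10% in DMSO and 0.943% and 3.49% in MHY, with overlap. Its difference between the times was 3.87 ± 1.2 in log2 odds and that of Psmb3 2.08 ± 0.69, and neither interaction passed (limma adjusted p = 0.446 and 0.462). No member was called in an interaction for any tail measure, where 0% of all genes were called.

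At 24 h the smallest p for short tails was that of Psmb7 (log2 odds 1.00 ± 0.42, limma adjusted p = 0.81), followed by the lid subunit Psmd12, with 3.80% and 2.63% in DMSO and 7.69% and 10.5% in MHY (1.45 ± 0.71, adjusted p = 0.996). Both had higher shares in both MHY libraries. For median tail, the ATPase Psmc5 had 92.8 and 66.4 nt in DMSO and 95.7 and 98 nt in MHY (22.9 ± 9.49 nt, limma adjusted p = 0.996), and the alpha subunit Psma6 102.5 and 104 nt in DMSO and 80.4 and 99.7 nt in MHY (-13.9 ± 7.83 nt). In each of these pairs the groups did not overlap, yet DMSO replicate 23 of Psmc5 and MHY replicate 21 of Psma6 stood far from their partners.

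At 48 h the smallest p for median tail belonged to the ATPase Psmc1, with 90.4 and 94.0 nt in DMSO and 70.6 and 93.9 nt in MHY (-15.1 ± 8.36 nt, limma adjusted p = 0.696), and to Psmb6, with 92.7 and 84.4 nt in DMSO and 68.9 and 68.2 nt in MHY (-18.9 ± 11.6 nt, adjusted p = 0.761). Psmb6 rested on 25 to 63 reads per library. Across both times its difference of effects was -41.3 ± 17.9 nt and that of Psmc1 -30.6 ± 12.8 nt, with an adjusted p of 0.999 for each (limma).

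For tails of 30 to 90 nt the smallest p at 24 h were those of Psmd14 (60% and 49.2% in DMSO, 32.5% and 35.7% in MHY) and Psma6 (37.4% and 40.2% in DMSO, 58.8% and 43.8% in MHY), with log2 odds of -1.07 ± 0.47 and 0.74 ± 0.33 (limma adjusted p = 0.979 for both). At 48 h they were those of the lid subunit Psmd11 (-1.20 ± 0.62, adjusted p = 0.827) and of Psmb7 (0.36 ± 0.24, adjusted p = 0.925). Psma6 and Psmc1 had the smallest p of an interaction in this class (-0.99 ± 0.44 and 1.14 ± 0.53, adjusted p = 0.994 for both, limma).

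**Figure D5:**
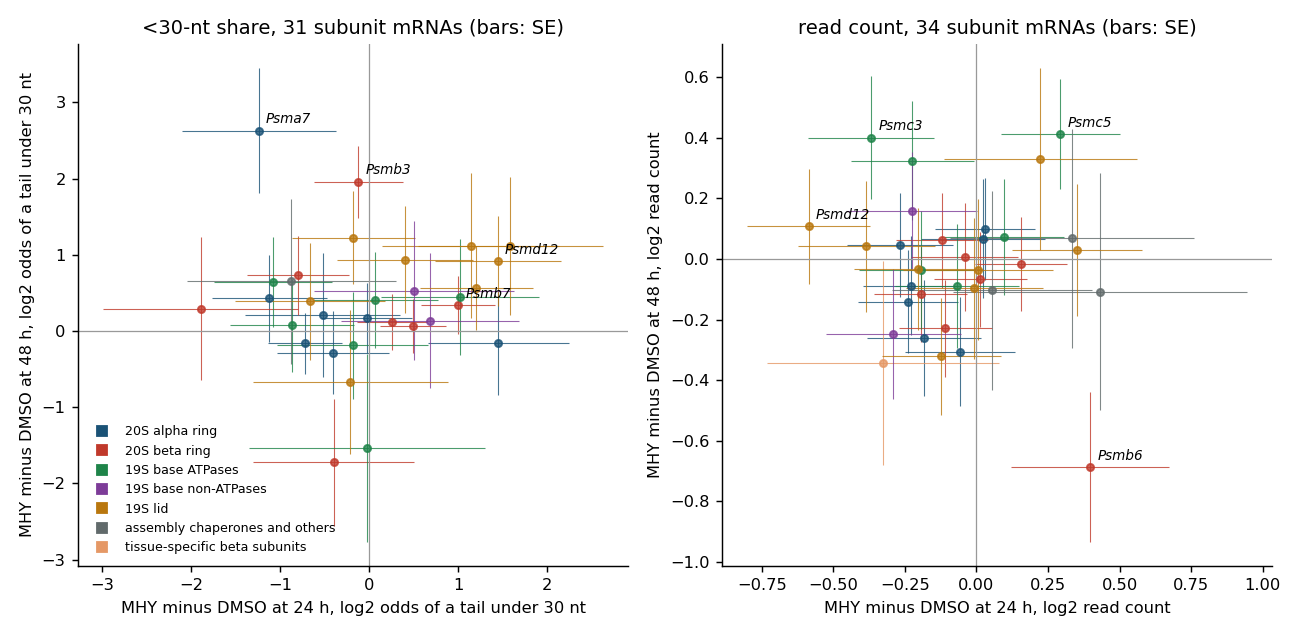
Change with MHY at 24 h (horizontal) against the change at 48 h (vertical) for each member, as log2 odds of a tail under 30 nt (left, 31 members) and as log2 read count (right, 34 members), with the SE of the limma fits as bars and colours by role. The named points have the smallest p at either time, among them Psma7 and Psmb3 at 2.63 and 1.96 in the left panel at 48 h and Psmb6 at -0.69 in the right, and none was called.

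At 24 h members made up 10846 and 11473 RPM in DMSO replicates 21 and 23 and 10628 and 10837 in MHY replicates 21 and 23, so that both MHY libraries were lower (log2 ratio of means -0.06, exact permutation p = 0.33). The ratio was -0.02 without DMSO replicate 23, -0.10 without DMSO replicate 21 and 0.05 in run 2 alone. At 48 h they made up 10919 and 10539 in DMSO replicates 24 and 25 and 11712 and 10991 in MHY replicates 24 and 25, and both MHY libraries were higher (log2 ratio 0.08, exact permutation p = 0.33). It was 0.03 without MHY replicate 24 and 0.13 without MHY replicate 25. When libraries were scaled by median-of-ratios size factors, the value at 48 h turned to -0.03. In bulk RNA, fewer cells with a transcript and less of it per cell cannot be told apart.

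No member was called in read count by limma voom among the 34 tested, where 0.0486% of 4116 genes were called at 24 h and 1.72% at 48 h. At an unadjusted p under 0.05, 1 of 34 members passed at 24 h and 3 at 48 h, beside 4.47% and 12.3% of all genes. Changes ran from -0.59 to 0.43 in log2 at 24 h and from -0.69 to 0.41 at 48 h, with a median SE of 0.22 and 0.19.

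At 48 h the read level of Psmb6 was 178 and 199 RPM in DMSO and 135 and 117 in MHY, and both MHY libraries were lower (log2 change -0.69 ± 0.25, limma adjusted p = 0.143). At 24 h it was 131 and 109 in DMSO and 156 and 163 in MHY, with both MHY libraries higher. The difference between the times, -1.08 ± 0.37, was not called (limma adjusted p = 0.336, while 0.34% of all genes had a called interaction).

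Psmc5 was higher in both MHY libraries at 48 h, with 295 and 316 RPM in DMSO and 526 and 355 in MHY (0.41 ± 0.18, limma adjusted p = 0.304). Without MHY replicate 25 it was called (0.63 ± 0.19, limma adjusted p = 0.039), the 1 member called in any of 200 alternative fits. That fit left 1 MHY library at 48 h, assumed to vary like the other groups, and called 3.5% of all genes. At 24 h the smallest p were those of Psmd12, with 414 and 276 RPM in DMSO and 231 and 213 in MHY (-0.59 ± 0.21, adjusted p = 0.916), and of Psmc3 (-0.37 ± 0.22, adjusted p = 0.958, limma). Psmc3 had the second smallest p of an interaction in read count (0.77 ± 0.30, adjusted p = 0.454).

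Between the times, averaged over both treatments, no member was called either, where 0% of all genes were called in short tails, 1.13% in the 30 to 90 nt class, 1.28% in median tail and 0.875% in read count. The smallest p belonged to Psma2 (log2 odds 0.82 ± 0.29) and Psmc6 (1.29 ± 0.46) for short tails, with limma adjusted p of 0.396 and 0.400. For median tail they belonged to Psmb7 (-9.61 ± 4.24 nt, adjusted p = 0.339) and Psmb4 (-7.34 ± 4.44 nt, adjusted p = 0.571). In the 30 to 90 nt class they were those of Psma1 (-0.51 ± 0.27, adjusted p = 0.558) and the lid subunit Psmd7 (0.67 ± 0.36, adjusted p = 0.586), and in read count those of Psmd4 (0.29 ± 0.15, adjusted p = 0.554) and Psmc5 (0.25 ± 0.14, adjusted p = 0.605). Of the members, 7 of 31 had longer median tails at 48 h than at 24 h, beside 26.4% of all genes.

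Genes that assemble, activate or supply the proteasome were counted as a further list. It held the activators Psme1 to Psme4, the inhibitor Psmf1, the assembly factors Psmg1 to Psmg4 and Pomp, and ubiquitin receptors, shuttles and deubiquitinases such as Adrm1 and Usp14. None of its 19 genes in the tail fits and none of its 25 in the read count fit was called with MHY at either time, in the interaction or between the times. Compared with the level of the library, 8 of 19 had more tails under 30 nt (among them Adrm1, Psme4, Psmg1 and Uchl5) and 1 had fewer (Pomp), beside the 22% and 9.9% of all genes given above.

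Pomp, which guides the maturation of the beta ring, was called in both measures in the same direction as Psmb2, with log2 odds of -1.12 ± 0.19 (limma adjusted p = 0.0032) and a median tail 7.81 ± 2.48 nt above its library (adjusted p = 0.0096). Median tails were called longer in 5 of the 19 genes, Usp14 and Ubqln1 among them, and shorter in 4, Adrm1 and Psmg1 among them, which is near the 23.9% and 17% of all genes. Psmg1, a chaperone of alpha ring assembly, was lowest at -22.3 ± 4.12 nt (limma adjusted p = 1.8e-05).

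The start sites of the genes were read from RefSeq promoters (GRCm38.p6, 250 bases before to 50 after the start), which were found for 28 of the 34 members with at least 30 reads. mTOR preferentially regulates the translation of mRNAs that begin with C followed by a run of pyrimidines. According to the study it can also influence transcriptional pathways. None of the 28 members had a start with C and at least 5 pyrimidines in all. Such a start was found in 3.24% of 4717 genes and in 23.2% of 56 ribosomal protein genes. The study counts multiple ribosomal protein mRNAs among those of this kind, so the rule can miss such starts. At 3.24%, few would fall among 28 genes, and their absence cannot tell the members from other genes. The motif TGACNNNGC, the core of the element bound by the proteasome regulator NFE2L1, was searched on both strands and occurred in 5 of 28 member promoters (17.9%) against 17.1% of all genes. Members holding it were Psmb5, Psmb6, Psmc6, Psmd9 and Psmd12. These counts describe letters in annotated windows and not bound sites.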

How the data were processed

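Members and gene lists were chosen with earlier results of these data known. Base calls came from Guppy, alignments to GENCODE vM17 transcripts (mm10) from minimap2 (2.20 in the submitters' processing notes), tail lengths from Nanopolish and library barcodes from Deeplexicon, according to the study. The authors deposited 1 line per alignment, with the tail length in nt, the barcode confidence as a fraction and the mapping quality as a score, none of them normalized or filtered.

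Alignments tagged PASS on mRNA transcripts outside pseudogenes and mitochondria were kept, once per read and transcript, which was 80.3% of the 26446 member alignments. Libraries whose condition carries no time in the table were taken as the 24 h ones, since the others are marked 48 h. Tails were classed as under 30 nt, 30 to 90 nt and longer. Pooled member values were compared between libraries by two-sided exact permutation tests, and genes by limma (3.58.1, R 4.3.3): log2 odds of a class after adding 0.5 read, or median tails, weighted by reads, for genes with at least 10 reads in each library, and voom with median-of-ratios size factors for genes reaching 10 reads in 2 or more libraries. All 8 libraries entered 1 fit, adjusted p under 0.05 was called, and effects are given with their SE. The comparison of gene levels with their libraries was added after the data had been seen. Fits were tested on simulated data. Named genes were the 4 most abundant, 4 longest-tailed and 4 shortest-tailed members, Psmb5, Psmb6, Psmb7, Psmd14 and Psmd4, and the 2 smallest p per contrast where none was called. Others are named for their place in a count or value, chosen after their values were seen. That replicates came from separate cultures rests on the study's description, and p-values measure the spread between these samples. Reads are single molecules without identifiers, so intervals cover counting error only. Alternatives were leaving out libraries, mapping quality of at least 10, barcode confidence of at least 0.9, single runs, other class bounds, other scaling, other filters and weights, and a replicate block.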

Additional observations from a re-analysis of the deposited data

Results flagged for a closer look

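The pooled RPM of proteasome mRNA differed in opposite directions between the treatments at the 2 times, with neither difference past its test. Both MHY libraries were below both DMSO libraries at 24 h (log2 ratio -0.06) and above them at 48 h (0.08), so that the effects differ by 0.14 in log2. Without DMSO replicate 23 the value at 24 h was -0.02, and without MHY replicate 24 that at 48 h was 0.03. The difference was not tested as such, the margin at 24 h was 10837 against 10846 RPM, and size factors in place of total reads turned the value at 48 h to -0.03.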

How the results depend on the processing

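The lower median tail and the excess of short tails in members against other mRNAs kept their direction and passed in every alternative that was tested. Single runs gave the same direction and were not tested. The median difference was -8.22 to -7.38 nt and the short-tail difference 2.05 to 2.31 points without single libraries. Barcode confidence of at least 0.9 gave 1.55 points. Depth limits single members, some of which had 15 reads in a library.

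Several differences with MHY pooled over members turned sign, in each measure at 24 h and in the 30 to 90 nt class and the read level at 48 h. At 48 h the short-tail difference stayed positive without single libraries and in both runs (1.95 and 1.28 points). The median difference at 48 h stayed negative in the same alternatives, with -1.69 and -3.62 nt in the runs. Without single libraries the differences at 24 h ran from -2.87 to 0.71 nt for the median and from -0.703 to 1.19 points for short tails. Those in the 30 to 90 nt class ran from -1.17 to 2.06 points at 24 h and from -0.82 to 2.2 points at 48 h. Genes weighted equally gave 1.02 nt and -0.653 points at 24 h and -0.497 points at 48 h (median, then 30 to 90 nt class). Run 2 of 24 h alone gave 1.76 nt, -0.479 points under 30 nt, -0.887 points in the 30 to 90 nt class and 0.0461 in log2 RPM. Run 1 of 48 h gave -0.676 points and bounds of 40 to 80 nt -1.02 points for the 30 to 90 nt class. Barcode confidence of at least 0.9 gave -0.190 points under 30 nt at 24 h, and size factors -0.0250 in log2 reads at 48 h. The cause was not tested. Members called in read count at 48 h numbered 0 to 1 without single libraries, the 1 of 34 being Psmc5 without MHY 48 h replicate 25, where 1 library was left in that arm and 3.5% of all genes were called, and 0 in the other alternative fits. Over all genes, calls with MHY at 48 h ran from 0 to 17 in short tails, 0 to 36 in the 30 to 90 nt class, 0 to 41 in median tail and 17 to 147 in read count over the alternatives, beside 7, 5, 17 and 71. At a mapping quality of at least 10, 1 of 30 members was called longer in median tail, beside 22.3% of all genes.

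Replicate numbers were not said to pair the libraries, and same-numbered libraries deviated together with r of 0.02 and 0.14 in reads and 0.05 and 0.04 in median tail. With the replicate block, the median differences were -1.08 nt at 24 h and -2.73 nt at 48 h, short tails 0.245 and 1.55 points, the 30 to 90 nt class 0.447 and 0.689 points, log2 reads -0.06 and 0.08. These equal the unblocked values by construction, with 1 library of each treatment per number, and say nothing of stability. In the gene-wise fits with the block no member was called.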
